A study of Mus musculus with 36 samples.

Results

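Mural cells wrap the outside of blood vessels, and 10 genes that mark them were followed here through every tissue of mice that carry a translocation fusion gene of renal cell carcinoma. The genes were taken by symbol from the 53379 genes in the count tables. There were 6 pericyte genes, Rgs5, Pdgfrb, Notch3, Abcc9, Kcnj8 and Cspg4, and 4 contractile genes of smooth muscle, Acta2, Myh11, Tagln and Cnn1. All 10 had counts in each of the 28 animal-by-tissue sums, the fewest being 40 counts, and all 10 passed the filter on low counts in every comparison.

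RNA was sequenced from formalin-fixed, paraffin-embedded tissue in 36 libraries. In the adult model, Sglt2-Cre drove recombination of 1 ASPSCR1-TFE3 LSL allele (genotype Sglt2-Cre; ASPSCR1-TFE3 LSL/+), and 6 such mice gave 11 libraries of kidney tumor, 4 of non-transformed kidney, 4 of retro-orbital tumor and 3 of brain tumor, while 3 mice with Sglt2-Cre but without the fusion gave 6 control kidney libraries. In the fetal model, 5 fetuses of genotype Pax8-Cre; ASPSCR1-TFE3 LSL/+ gave kidneys labelled dysmorphic and 3 fetuses labelled Pax8-Cre gave control fetal kidneys. Libraries of 1 animal and tissue were summed, so n counts animals, and fusion mice keep 1 number across their tissues. By these labels every group carried a Cre transgene, driven by the promoter of a kidney epithelial gene, although the series' design text allows that a fetal control carried the silent fusion allele instead. The ages of the animals were not given in the labels.

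Pericytes sit in the basement membrane of capillaries and are recruited by PDGF-B, which endothelial cells secrete and the receptor encoded by Pdgfrb binds. Notch3 is the Notch receptor of mural cells and is engaged by ligands on the endothelium. Smooth muscle cells of arteries, and of hollow organs such as the ureter, carry instead a contractile apparatus whose genes are switched on by serum response factor (SRF) and its partner myocardin at a DNA element called the CArG box. In the kidney, mesangial cells and renin cells belong to the same family of perivascular cells.

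Of the other pericyte genes, Rgs5 (ENSMUSG00000026678.10) encodes a regulator that shortens signalling by G-protein-coupled receptors and lies on chromosome 1, 169655501 to 169695813. Abcc9 (ENSMUSG00000030249.15) and Kcnj8 (ENSMUSG00000030247.9) encode the regulatory and the pore subunit of a vascular potassium channel gated by ATP, and they lie close together on the minus strand of chromosome 6, at 142587862 to 142702315 and 142564837 to 142571614. Cspg4, on chromosome 9 from 56865033 to 56899870, encodes the NG2 proteoglycan, which oligodendrocyte precursors of the brain carry as well. Acta2 (smooth muscle actin) lies on chromosome 19, 34241090 to 34255590, and Myh11 (smooth muscle myosin heavy chain) on chromosome 16, 14194535 to 14291372. Tagln (transgelin, an actin-binding protein) lies on chromosome 9, 45929619 to 45936058, and Cnn1 (calponin) on the same chromosome, 22099216 to 22109630. Coordinates are those of the GENCODE M21 annotation, build GRCm38. An antisense gene shared 1241 exon bases with Tagln, 488 with Notch3 and 158 with Abcc9. Whether the counting used strand was not given in the sources used here, so reads of those overlaps cannot be assigned.

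Promoter sequences were searched for the element that SRF binds. RefSeq (GRCm38.p6) promoters of 300 bases, from 250 before the annotated start, matched 7 members: Rgs5, Notch3, Abcc9, Kcnj8, Cspg4, Acta2 and Cnn1. None of the 7 held an exact CArG box (CC, then 6 bases that are each A or T, then GG), which 1.63% of 32841 promoters held. With 1 G or C allowed in the core, 8.49% of all promoters held a match and Acta2 was the 1 of the 7 that did, with 2 matches. The Acta2 matches are shown in 30-base windows on the minus strand of chromosome 19, with the matches in capitals, at -84 to -75 and -34 to -25 from the RefSeq start (position 0). A longer GENCODE transcript has these bases in its first exon.
Acta2, chr19:34255438-34255467: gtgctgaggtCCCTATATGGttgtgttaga
Acta2, chr19:34255388-34255417: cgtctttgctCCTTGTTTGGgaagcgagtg
For contrast, the 200 bases before the start are shown for Rgs5 (chromosome 1, plus strand) and Kcnj8 (chromosome 6, minus strand), the pericyte genes that carry several of the results, with no capitals because no CArG match of either kind was found.
Rgs5, chr1:169655301-169655500: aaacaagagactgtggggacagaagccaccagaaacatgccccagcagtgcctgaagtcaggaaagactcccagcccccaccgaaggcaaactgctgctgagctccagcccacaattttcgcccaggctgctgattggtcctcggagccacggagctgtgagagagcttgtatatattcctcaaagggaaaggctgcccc
Kcnj8, chr6:142571615-142571814: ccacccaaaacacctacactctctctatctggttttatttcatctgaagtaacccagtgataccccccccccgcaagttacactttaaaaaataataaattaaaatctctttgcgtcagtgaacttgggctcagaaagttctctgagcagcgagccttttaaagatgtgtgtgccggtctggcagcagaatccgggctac
TGGGAA, the core read by RBPJ, the DNA-binding partner of Notch, was found on either strand in 25.6% of all promoters and in those of Abcc9 (-221 to -216), Kcnj8 (0 to 5) and Acta2 (-27 to -22, overlapping its nearer CArG match). CACGTG, the core of the element bound by TFE3, was in none of the 7 members and in 7.15% of all promoters. A match is a run of letters in this window and not a measured site.

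The libraries held between 80205573 and 121415057 counts. Gpnmb, a lysosomal gene that MiT/TFE factors activate, was at 1.60 to 2.51 CPM (a gene's counts scaled to a fixed library size, with TMM factors) in control kidneys at 111 to 462 CPM in non-transformed kidneys and at 2940 to 7215 CPM in kidney tumors. Markers of proximal tubule, summed over 6 genes, were at 10880 to 11780 CPM in control kidneys and 625 to 7491 CPM in kidney tumors. Fetal libraries carried skeletal muscle transcripts, with 10 genes summing to 1349 to 1596 CPM in control and 3160 to 7487 CPM in dysmorphic fetal kidneys. The kidney tumor of fusion mouse 4 stood apart in brain transcripts, with Rbfox3 at 10.4 CPM and Snap25 at 7.34 CPM, against at most 0.844 and 2.76 CPM in the other 5 kidney tumor mice. Without this mouse, the member calls in kidney tumors against control kidneys and in retro-orbital against kidney tumors were as with it. Dysmorphic fetus 5 stood apart as well, with neuronal genes summing to 73.9 CPM against 4.44 to 10.9 CPM in the other 4 dysmorphic fetuses. Olig1 was at 5.29 CPM against at most 0.0711 CPM, and the tubule gene Cubn at 754 CPM against 13.8 to 35.1 CPM. Cubn was at 344 to 1234 CPM in control fetal kidneys, a range that holds fetus 5. The other tubule genes did not set fetus 5 apart. Lrp2 was at 61.5 CPM, inside the 7.60 to 100.6 CPM of the other 4, and Slc34a1 and Slc22a6 were lowest in fetus 5.

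Over the 7 groups the pericyte and the contractile genes had different maxima and a shared minimum. Mean CPM of Rgs5, Pdgfrb, Notch3, Abcc9 and Kcnj8 was highest in retro-orbital tumors, and Cspg4 was at 71.3 ± 27.0 CPM (SD, n = 4) there and at 71.4 ± 21.5 CPM (n = 5) in dysmorphic fetal kidneys. All 4 contractile genes had their highest mean in control fetal kidneys. Of the 10 genes, 9 had their lowest mean in brain tumors, the exception being Rgs5, lowest in dysmorphic fetal kidneys at 32.1 ± 11.2 CPM (n = 5). Adult and fetal groups came from separate tables and no test of levels was run between them. In bulk tissue, fewer cells of a type and less RNA per cell cannot be told apart, and this holds for each result that follows.

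**Figure D1:**
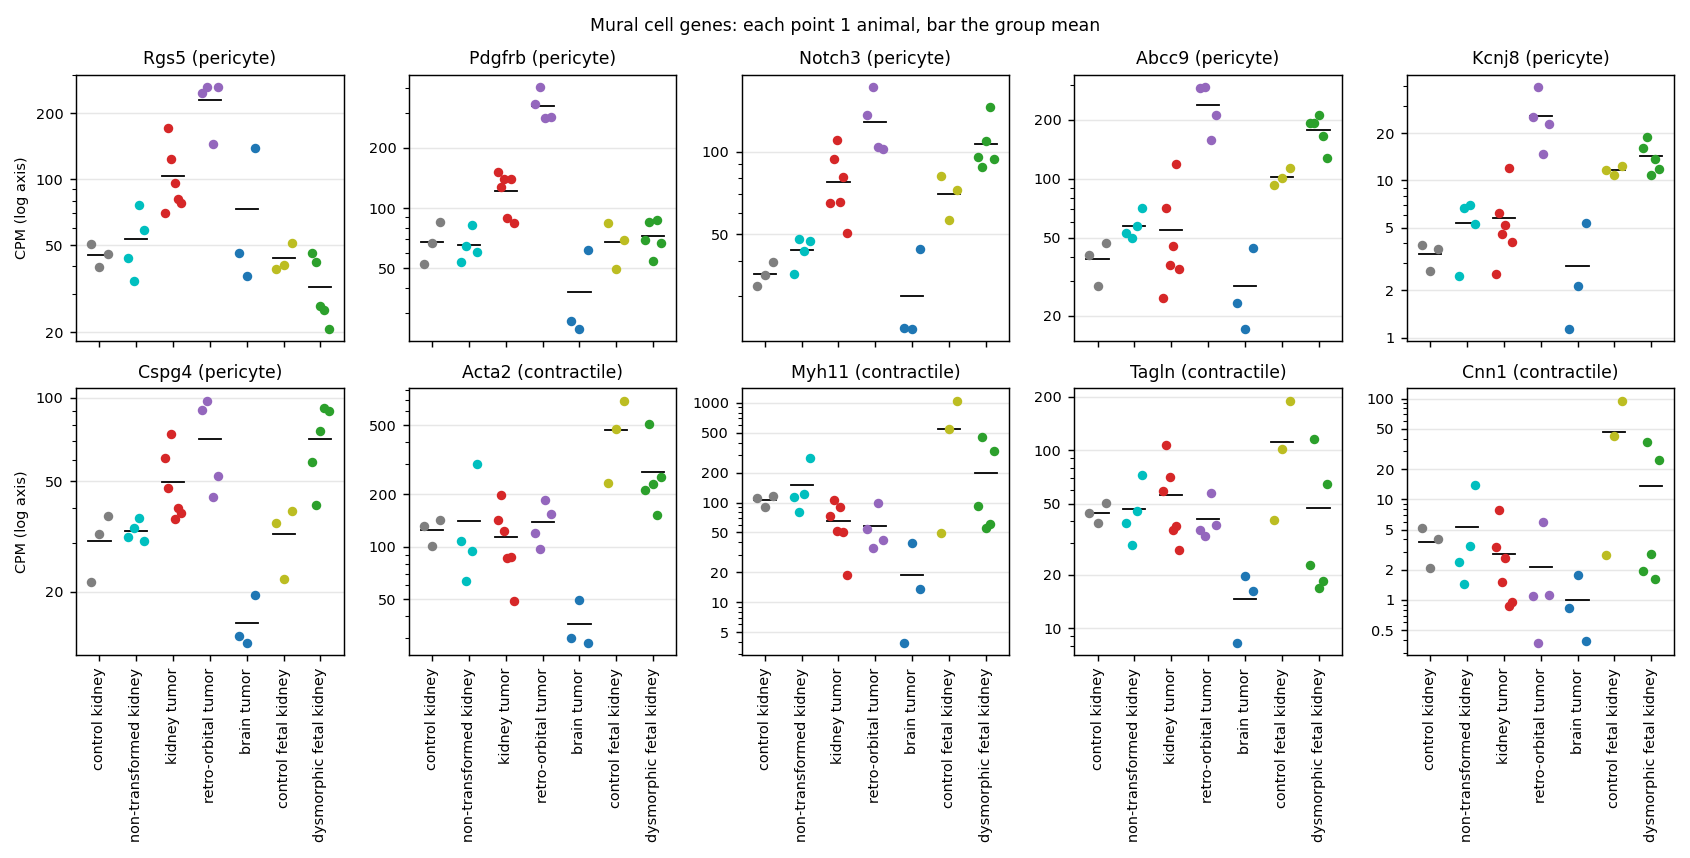
CPM of the 10 genes (log axis) in each of 28 animal-by-tissue sums, by group, with a bar at the group mean. The means of 5 of 6 pericyte genes are highest in retro-orbital tumors and those of the contractile genes in control fetal kidneys, and the brain tumor points of Pdgfrb, Cspg4 and Tagln lie below all kidney tumor points.

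Levels of different genes were compared per kilobase of exon. In control kidneys Acta2 was first at 57.1 ± 9.79 CPM per kilobase (n = 3), followed by Tagln at 22.5 ± 2.78 and Myh11 at 13.8 ± 1.82, with Pdgfrb at 12.4 ± 2.97 the first pericyte gene. Kcnj8 and Cnn1 were last, at 1.33 ± 0.262 and 1.37 ± 0.571 CPM per kilobase, and did not differ beyond their spread. In retro-orbital tumors the highest means were those of Acta2 at 63.6 ± 17.8 CPM per kilobase (n = 4), Pdgfrb at 59.3 ± 10.4 and Rgs5 at 50.7 ± 12.6. These 3 did not differ beyond their spread. Myh11 stood at 7.58 ± 3.79 and Cnn1 at 0.785 ± 0.947. In control fetal kidneys the first 4 means were those of Acta2, Myh11, Tagln and Cnn1. They were at 213 ± 105, 72.3 ± 66.3, 55.9 ± 37.95 and 17.2 ± 17.0 CPM per kilobase (n = 3). Myh11 and Tagln did not differ beyond their spread, nor did Cnn1 and Pdgfrb, which was next at 12.4 ± 3.19.

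The first question was how mural genes stand in tumors arising in the kidney, against kidneys without the fusion. Rgs5, Pdgfrb and Notch3 rose in kidney tumors, and no contractile gene was called. These 3 of 10 genes, all higher, compare with 19.0% of 23578 genes called in either direction and 12.5% called higher (edgeR's quasi-likelihood test, Benjamini-Hochberg adjusted p under 0.05 over all genes). The median log2 fold change was 0.81 over the 6 pericyte genes and -0.24 over the 4 contractile genes, against 0.05 over all genes tested. The groups did not overlap for 2 of 10 members, Rgs5 and Notch3, against 29.8% of all genes tested.

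Rgs5 was at 50.6, 39.7 and 45.4 CPM in control mice 1, 2 and 3, and at 70.4 to 172 CPM with a median of 88.9 in the 6 kidney tumor mice. Every tumor mouse was above every control mouse, with the highest level in fusion mouse 2. On the log2 scale tumors were higher by 1.22, with an SE of 0.29 (edgeR adjusted p = 0.0222).

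Notch3 was at 32.4, 35.6 and 39.9 CPM in the controls and at 50.7 to 110 CPM with a median of 73.2 in the tumors. The groups did not overlap, and fusion mouse 6 was the lowest of the tumor mice. Notch3 rose by 1.13 ± 0.24 on the log2 scale (edgeR adjusted p = 0.0144).

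Pdgfrb was at 52.4, 66.8 and 84.8 CPM in the controls and at 84.5 to 152 CPM with a median of 133 in the tumors. Control mouse 3 and fusion mouse 6 met at the boundary, and the other 5 tumor mice were above all controls. The log2 fold change was 0.86 ± 0.24 (edgeR adjusted p = 0.0356). None of the 3 calls was kept when control mouse 1, 2 or 3 was left out, with edgeR adjusted p from 0.0561 to 0.12 and log2 fold changes from 0.71 to 1.31. The Pdgfrb call was also lost without fusion mouse 2 (adjusted p = 0.0601) or fusion mouse 3 (adjusted p = 0.0651).

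Cspg4, Kcnj8 and Abcc9 had log2 fold changes of 0.72 ± 0.28, 0.77 ± 0.43 and 0.51 ± 0.46, with edgeR adjusted p of 0.0988, 0.23 and 0.443. Cspg4 was called with unsummed libraries (edgeR adjusted p = 0.0108) and by limma-voom with mouse as a random block (adjusted p = 0.0356). Abcc9 spread widely among tumors, from 24.5 CPM in fusion mouse 1 to 119 CPM in fusion mouse 5, around control values of 28.2 to 46.9 CPM. Kcnj8 had its highest tumor value, 12.0 CPM, in the same fusion mouse 5. The contractile genes lay on both sides of 0, from -0.67 ± 0.42 for Myh11 to 0.35 ± 0.40 for Tagln, with adjusted p of 0.279 to 0.855. Fusion mouse 6 had the lowest tumor level of Acta2 (48.9 CPM), Myh11 (18.5 CPM) and Tagln (27.5 CPM), and fusion mouse 2 the highest of all 4 contractile genes.

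**Figure D2:**
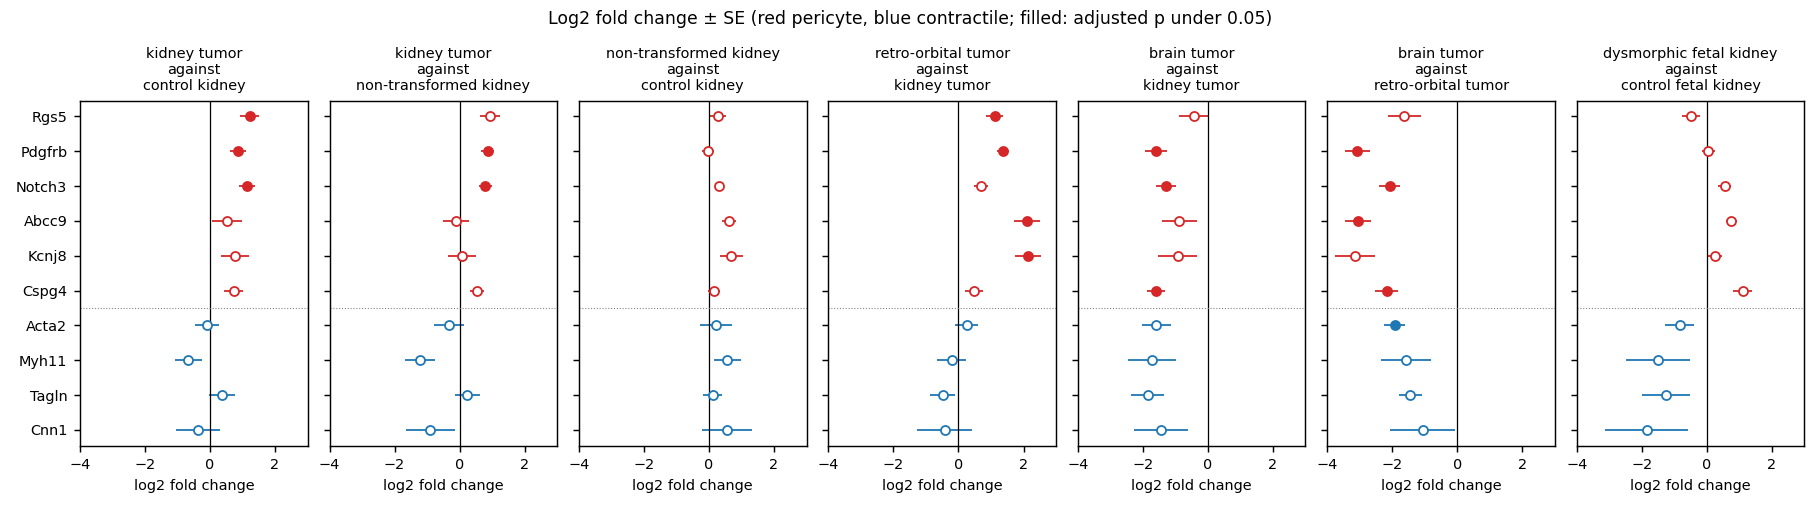
Log2 fold change with its SE for the 10 genes in 7 comparisons, red for pericyte and blue for contractile genes, filled where the adjusted p was under 0.05. Of the filled points, 1 is contractile, Acta2 in brain against retro-orbital tumors.

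Other genes of the same cells were counted from lists. Of 10 other pericyte genes, 5 were higher in kidney tumors than in control kidneys and none lower. They included Tbx18, a transcription factor of mural cells (log2 fold change 2.63 ± 0.52, adjusted p = 0.0111), Foxs1 (1.77 ± 0.32, adjusted p = 0.0081) and Mcam, the adhesion molecule CD146 (1.37 ± 0.28, adjusted p = 0.0116). Of 11 other contractile genes, Lmod1, an actin nucleator of smooth muscle, fell by 1.20 ± 0.35 (adjusted p = 0.0418), while Tpm1 and Cald1, actin-filament genes expressed in many cells, rose by 0.78 ± 0.19 and 0.92 ± 0.25 on the log2 scale (adjusted p = 0.0222 and 0.0328). Among 8 ligands and targets of the 2 receptors, Pdgfb rose by 2.13 ± 0.38 (adjusted p = 0.00749) and Heyl, a Notch target of mural cells, by 1.42 ± 0.24 (adjusted p = 0.00579). None of the 5 genes of the myocardin and SRF list was called, and 1 had an unadjusted p under 0.05. Of 4 renin and mesangial genes edgeR called none, with 3 at an unadjusted p under 0.05, a median log2 fold change of -1.13 and sums of 222 to 275 CPM in controls and 46.0 to 174 CPM in tumors.

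Markers of endothelial cells and fibroblasts were counted in the same comparison. None of 8 endothelial genes was called by edgeR, with 2 at an unadjusted p under 0.05, and their summed level was 647 to 802 CPM in control kidneys and 402 to 746 CPM in kidney tumors. Of 8 fibroblast genes 4 were higher, among them Col1a1, a chain of type I collagen (3.46 ± 0.55, adjusted p = 0.00436), and the sum was 343 to 647 CPM in controls and 1166 to 2539 CPM in tumors. Pdgfrb is expressed by fibroblasts too. The part of fibroblasts in its rise was not tested. Skeletal muscle and neuronal genes had median log2 fold changes of 3.23 and 3.28, with none called by edgeR. At an unadjusted p under 0.05 there were 5 of 10 and 2 of 4. Of 4 oligodendrocyte-lineage genes tested 1 was higher, with a median of 1.53. The 6 proximal tubule genes had a median of -2.06, with none called. The part of these tissues in the member levels was not tested either.

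Kidney tumors were next set against non-transformed kidney of the fusion mice, in a comparison that shares its tumor samples with the first. Pdgfrb and Notch3 were higher in tumors, 2 of 10 genes, where 17.1% of 21930 genes were called and 12.1% were called higher. These 2 were also the members whose groups did not overlap, against 17.6% of all genes. Pdgfrb was at 54.1, 65.0, 82.1 and 60.6 CPM in non-transformed kidney of fusion mice 1, 3, 4 and 5, below all 6 tumor mice, with a log2 fold change of 0.87 ± 0.20 (edgeR adjusted p = 0.018). Notch3 was at 35.99, 48.0, 43.5 and 47.4 CPM, again below all tumor mice, with a log2 fold change of 0.79 ± 0.21 (adjusted p = 0.0298). With mouse as a block, on the 4 mice that gave both tissues, neither passed (edgeR adjusted p = 0.106 and 0.058). Neither was called without fusion mouse 1, 3 or 5, and Notch3 was not without fusion mouse 2 or 4, with adjusted p from 0.0569 to 0.103. Rgs5 was at 34.4 to 76.7 CPM in non-transformed kidney, where fusion mouse 4 lay above the lowest tumor, and its log2 fold change was 0.93 ± 0.31 (edgeR adjusted p = 0.0613). It was called by DESeq2 (adjusted p = 0.024), in the joint fit of all groups (0.0425), with unsummed libraries (0.0416) and by limma-voom with mouse as a random block (0.0222). Of 8 fibroblast genes 4 were higher in the same comparison, with a median log2 fold change of 0.94. The 6 proximal tubule genes had a median of -2.25 with none called by edgeR and 1 at an unadjusted p under 0.05. Of 10 skeletal muscle genes 1 was higher, with a median of 2.60, and of 4 oligodendrocyte-lineage genes tested 1 was, with a median of 1.23. The part of these cells in the member levels was not tested.

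Myh11 was at 113, 80.3, 121 and 283 CPM in non-transformed kidney of fusion mice 1, 3, 4 and 5. Fusion mouse 5 stood apart there in all 4 contractile genes, with Acta2 at 298 CPM against 63.7 to 107 CPM in the other 3 mice and Cnn1 at 13.7 CPM against 1.45 to 3.45 CPM. Its pericyte genes did not stand apart, with a summed level of 273 CPM inside the range of 220 to 304 CPM. The log2 fold change of Myh11 in tumors was -1.22 ± 0.47 (adjusted p = 0.0959).

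Non-transformed kidneys of fusion mice were compared with control kidneys, in tissue where Gpnmb was higher by 6.97 ± 0.67 on the log2 scale (edgeR adjusted p = 0.0483). None of the 10 genes was called by edgeR, where 0.00952% of 21019 genes were, 2 had an unadjusted p under 0.05, and DESeq2 called no member and 493 of 21019 genes. Abcc9 was at 52.7, 49.6, 57.3 and 70.9 CPM in non-transformed kidneys, above all 3 controls at 41.0, 28.2 and 46.9 CPM, the 1 member whose groups did not overlap, against 11.2% of all genes, with a log2 fold change of 0.61 ± 0.21 (edgeR adjusted p = 0.314). Notch3 had a log2 fold change of 0.32 ± 0.13 (adjusted p = 0.414).

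Retro-orbital tumors, with the highest mean of 5 of 6 pericyte genes, were compared with kidney tumors of the same group of mice. Abcc9, Kcnj8, Pdgfrb and Rgs5 rose, 4 of 10 genes, where 17.7% of 22136 genes were called and 8.26% were called higher. Without overlap between the groups were 3 of 10 members, against 16.1% of all genes. No contractile gene was called, and their log2 fold changes ran from -0.49 to 0.26. The median was 1.25 over the pericyte genes and -0.32 over the contractile genes, against -0.09 over all genes.

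Kcnj8, the channel pore, was at 25.4, 39.6, 14.7 and 22.9 CPM in retro-orbital tumors of fusion mice 2, 3, 5 and 6, and at 2.54 to 12.0 CPM with a median of 4.85 in kidney tumors. The groups did not overlap. The log2 fold change was 2.13 ± 0.40 (edgeR adjusted p = 0.00661), and with mouse as a block on the 4 mice with both tumors it was 2.04 with an adjusted p of 0.0591. Its channel partner Abcc9 was at 291, 296, 159 and 213 CPM in the same order, and at 24.5 to 119 CPM with a median of 40.8 in kidney tumors. These groups did not overlap either, and the log2 fold change was 2.10 ± 0.40 (adjusted p = 0.00701).

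Pdgfrb was at 329, 404, 282 and 285 CPM in retro-orbital tumors, all above the highest kidney tumor at 152 CPM. The log2 fold change was 1.38 ± 0.19 (edgeR adjusted p = 0.00203). Rgs5 was at 263, 145 and 265 CPM in fusion mice 3, 5 and 6, with fusion mouse 2 just below mouse 3, against 70.4 to 172 CPM in kidney tumors. Fusion mouse 5 lay inside the kidney tumor range and the other 3 above it, with a log2 fold change of 1.12 ± 0.27 (adjusted p = 0.018). The Rgs5 call was lost without fusion mouse 3 (adjusted p = 0.0736) or 6 (adjusted p = 0.0923). Notch3 had a log2 fold change of 0.69 ± 0.23 (adjusted p = 0.0591), which was 0.66 with an adjusted p of 0.0424 under the mouse block. Notch3 was also called with upper quartile factors (adjusted p = 0.0365), halved counts (0.0437) or the joint fit (0.019), by DESeq2 (0.0257) and by limma-voom (0.0179). Cspg4 had a log2 fold change of 0.48 ± 0.28 (adjusted p = 0.257).

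Retro-orbital tumor of fusion mouse 5 was the lowest of the 4 in Rgs5, Pdgfrb, Abcc9, Kcnj8 and Cspg4 and the highest in Acta2 (187 CPM), Myh11 (99.2 CPM), Tagln (57.3 CPM) and Cnn1 (6.00 CPM). It also had the highest proximal tubule sum, 1001 CPM against 82.9 to 170 CPM in the other 3. The part of kidney tissue in these levels was not tested.

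Other genes of vessels were called in the same comparison. Of 10 other pericyte genes 7 were higher in retro-orbital tumors, with Mcam at 2.07 ± 0.28 (adjusted p = 0.00177) and Higd1b, a mitochondrial protein gene of pericytes, at 1.90 ± 0.40 (adjusted p = 0.0112). Of 8 endothelial genes 5 were higher, among them Cdh5 (VE-cadherin, 2.27 ± 0.22, adjusted p = 0.00116), and the endothelial sum was 986 to 1476 CPM in retro-orbital tumors and 402 to 746 CPM in kidney tumors. Of 8 fibroblast genes 2 were higher and 7 had a log2 fold change above 0, with a median of 0.83, and they summed to 2098 to 4121 CPM in retro-orbital and 1166 to 2539 CPM in kidney tumors. The part of endothelial cells and fibroblasts in the member levels was not tested. Dll4, a Notch ligand of endothelial cells, rose by 2.27 ± 0.33 (adjusted p = 0.00248), and the Notch targets Hey1 and Heyl rose by 3.21 and 1.06 on the log2 scale (adjusted p = 0.000822 and 0.00382). Of 11 other contractile genes none was higher, and 2 were lower, Hspb6, a small heat shock protein of muscle (-0.92 ± 0.24, adjusted p = 0.0277), and Pln, a regulator of the muscle calcium pump (-4.01 ± 1.18, adjusted p = 0.0412). Striated muscle expresses both, and all 10 skeletal muscle genes had log2 fold changes below 0, with a median of -2.79, none called by edgeR and 6 at an unadjusted p under 0.05. Their sums were 4.53 to 165 CPM in kidney and 3.62 to 13.5 CPM in retro-orbital tumors, and the part of skeletal muscle was not tested. Ren1 (renin) and Agtr1a, of the 4 renin and mesangial genes, fell by 3.58 ± 0.94 and 2.98 ± 0.60 (adjusted p = 0.0262 and 0.00883), while Akr1b7, an aldo-keto reductase of renin cells, rose by 2.86 ± 0.50 (adjusted p = 0.00496).

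**Figure D3:**
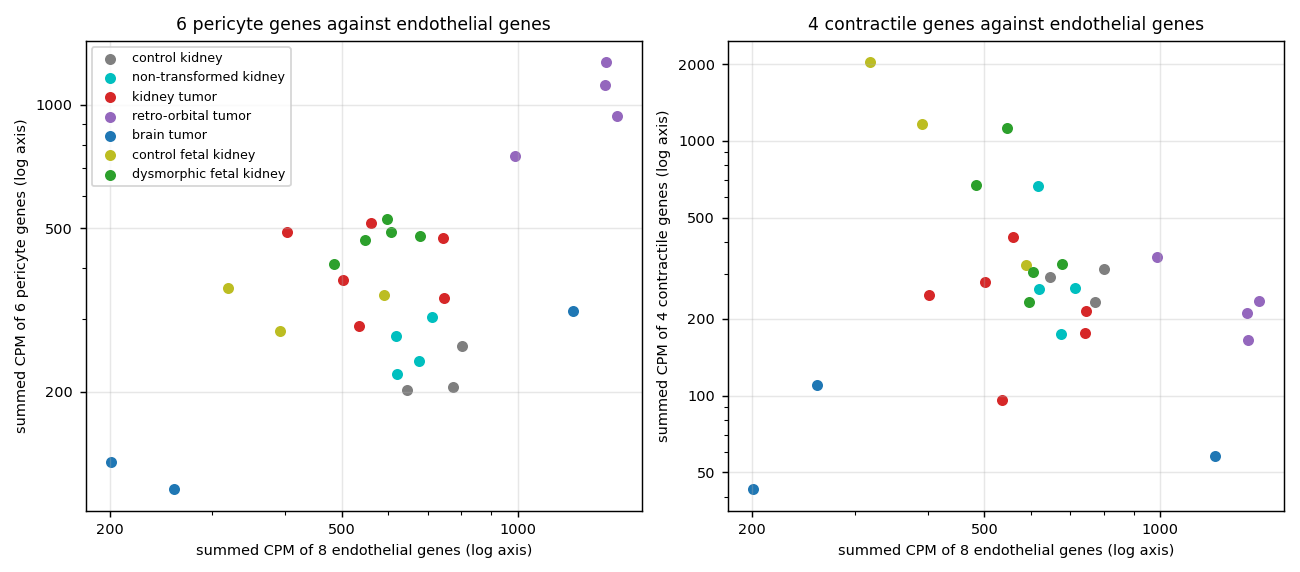
Summed CPM of the 6 pericyte genes (left) and the 4 contractile genes (right) against the summed CPM of 8 endothelial genes, log axes, 1 point per animal-by-tissue sum. Retro-orbital tumors lie at the upper right on the left panel, from 749 to 1272 CPM of pericyte genes, and among the other adult tissues on the right panel, from 166 to 349 CPM of contractile genes.

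Brain tumors had the lowest mean of each member but Rgs5. Against kidney tumors, Pdgfrb, Notch3 and Cspg4 were lower, 3 of 10 genes, where 8.74% of 23391 genes were called and 4.20% were called lower. Brain and kidney tumor values were fully apart for 4 of 10 members, against 15.2% of all genes. All 10 log2 fold changes were below 0, from -1.85 to -0.42, with medians of -1.11 for pericyte and -1.65 for contractile genes against 0.03 over all genes.

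Cspg4 was at 13.8, 13.1 and 19.5 CPM in brain tumors of fusion mice 1, 2 and 4 and at 36.7 to 74.0 CPM with a median of 43.8 in kidney tumors. The groups did not overlap, and the log2 fold change was -1.60 ± 0.29 (edgeR adjusted p = 0.0178). Pdgfrb was at 27.3, 24.9 and 61.7 CPM in brain tumors, all below the lowest kidney tumor at 84.5 CPM, with a log2 fold change of -1.61 ± 0.34 (adjusted p = 0.0275). Notch3 was at 22.9, 22.6 and 44.2 CPM, below the lowest kidney tumor at 50.7 CPM, with a log2 fold change of -1.29 ± 0.32 (adjusted p = 0.0398). In all 3 genes fusion mouse 4 was the highest of the brain tumors. With mouse as a block on the 3 mice with both tumors, no call was kept (adjusted p = 0.29 to 0.316), in a fit that called 0 of 21827 genes, nor was any without fusion mouse 1 or fusion mouse 2 (adjusted p = 0.0749 to 0.168). Without fusion mouse 3, Cspg4 alone was called, and without fusion mouse 5 Notch3 was lost (adjusted p = 0.0651).

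Acta2 was at 30.0, 49.6 and 28.0 CPM in brain tumors and Tagln at 8.26, 19.7 and 16.1 CPM. The Acta2 value of fusion mouse 2 lay just above the lowest kidney tumor at 48.9 CPM, while all Tagln values lay below the lowest kidney tumor at 27.5 CPM. Their log2 fold changes were -1.59 ± 0.44 and -1.85 ± 0.50 (edgeR adjusted p = 0.0557 and 0.052). DESeq2, which called 5104 of 23391 genes here, called both (adjusted p = 0.00615 and 0.00294). Myh11 ranged from 3.87 CPM in fusion mouse 1 to 38.8 CPM in fusion mouse 2, with a log2 fold change of -1.71 ± 0.74 (edgeR adjusted p = 0.167).

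Rgs5, with the smallest fold change of the 10 genes against kidney tumors, was at 46.2, 35.97 and 139 CPM in brain tumors of fusion mice 1, 2 and 4, against a kidney tumor range of 70.4 to 172 CPM. Fusion mouse 4 lay inside the kidney tumor range, the other 2 below it, and the log2 fold change was -0.42 ± 0.45 (edgeR adjusted p = 0.588). The brain tumor of fusion mouse 4 also had an endothelial sum of 1241 CPM, against 201 and 258 CPM in fusion mice 1 and 2. Oligodendrocyte-lineage genes summed to 31.3, 992 and 195 CPM and neuronal genes to 90.7, 778 and 103 CPM in brain tumors of fusion mice 1, 2 and 4, with Sox10 and Mog at 0 counts in fusion mouse 1. In fusion mouse 1 the neuronal sum was carried by Rbfox3, at 87.9 CPM, while Snap25, Syt1 and Gria2 were at 2.26, 0.323 and 0.266 CPM. In the brain tumor of fusion mouse 4 the same 3 genes were at 14.9, 14.7 and 16.9 CPM. The part of surrounding brain in the mural levels was not tested.

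Other cell types moved in the same comparison of brain with kidney tumors. Of 8 fibroblast genes 4 were lower, with a median log2 fold change of -2.20, and of 8 endothelial genes 2 were lower, with a median of -1.21. The 10 other pericyte genes had a median of 0.01, and they summed to 71.4 to 208.7 CPM in brain tumors, 53.7 to 103.2 CPM in kidney tumors and 41.0 to 55.02 CPM in control kidneys. The part of fibroblasts and endothelial cells in the member levels was not tested.

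Brain tumors were also compared with retro-orbital tumors. Pdgfrb, Notch3, Abcc9, Cspg4 and Acta2 were lower in brain tumors, 5 of 10 genes, where 1.73% of 21037 genes were called and 1.34% were called lower. Values of the 2 tumor sites were fully apart for 8 of 10 members, against 18.5% of all genes. Pdgfrb fell by 3.07 ± 0.37 (edgeR adjusted p = 0.0212) and Abcc9, at 23.1, 17.0 and 44.4 CPM in brain tumors, fell by 3.06 ± 0.41 (adjusted p = 0.0248). Cspg4, Notch3 and Acta2 fell by 2.18 ± 0.35, 2.08 ± 0.32 and 1.93 ± 0.32 on the log2 scale (adjusted p = 0.0364, 0.0334 and 0.0399). Kcnj8 had a log2 fold change of -3.14 ± 0.62 (adjusted p = 0.0571) and the groups did not overlap. It was called by DESeq2 (adjusted p = 8.11e-06), with halved counts (edgeR adjusted p = 0.0497) and in the joint fit (0.000288), which called 3816 of 25203 genes. It was also called without fusion mouse 1 (edgeR adjusted p = 0.0468) or 4 (0.0277). No member was called without fusion mouse 2, 3 or 6, where 0, 11 and 10 genes of all tested were called, and 3 were without fusion mouse 5, where 179 genes were, while the Acta2 call was also lost without fusion mouse 4 (adjusted p = 0.0507). Without fusion mouse 2, 3 or 6 the log2 fold change of Pdgfrb was -3.15 to -2.84. Fusion mouse 2 gave both tumors, so only 1 mouse was shared.

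Of 10 other pericyte genes edgeR called none between brain and retro-orbital tumors, with 6 at an unadjusted p under 0.05. Of 8 endothelial genes 5 were lower, with Cdh5 at -3.49 ± 0.45 (adjusted p = 0.0229), and of the receptors' partners Dll4, Heyl and Jag1 fell by 3.76, 2.91 and 1.70 on the log2 scale (adjusted p = 0.0331, 0.013 and 0.0312). Of 11 other contractile genes, Smtn, Lmod1 and Mylk (smoothelin, leiomodin and myosin light chain kinase) fell by 2.13, 1.91 and 1.83 (adjusted p = 0.0212, 0.0446 and 0.0351). Of 8 fibroblast genes 2 were lower, with a median of -3.06. The medians of the neuronal and oligodendrocyte lists were 6.49 and 5.75, with none called by edgeR and 4 of 4 and 5 of 6 genes at an unadjusted p under 0.05. The part of these cells in the member levels was not tested. Against kidney tumors, Mylk fell by 2.56 ± 0.43 (adjusted p = 0.0141) and Tbx18, of the other pericyte genes, rose by 3.57 ± 0.88 (adjusted p = 0.04), the only 1 of 10 called.

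In fetal kidneys no member was called between dysmorphic and control kidneys, where edgeR called 2.67% of 22690 genes. At an unadjusted p under 0.05 there were 3, and DESeq2 called 2 members and 2726 of 22690 genes. With edgeR, Cspg4 was called without dysmorphic fetus 2 (adjusted p = 0.0309) and Abcc9 without dysmorphic fetus 5 (adjusted p = 0.0311). Fetus 5 was the one that stood apart in neuronal transcripts, Olig1 and Cubn. The groups did not overlap for Abcc9, Cspg4 and Notch3, 3 of 10 genes, against 14.6% of all genes tested.

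Abcc9 was at 192, 193, 213, 166 and 128 CPM in dysmorphic fetuses 1 to 5 and at 92.8, 101 and 113 CPM in control fetuses 1 to 3. The log2 fold change was 0.75 ± 0.18 (edgeR adjusted p = 0.0656, DESeq2 adjusted p = 0.00706). Cspg4 was at 58.8, 41.0, 75.9, 91.7 and 89.7 CPM against 35.3, 22.2 and 39.1 CPM, with a log2 fold change of 1.10 ± 0.30 (edgeR adjusted p = 0.0968, DESeq2 adjusted p = 0.00975). Notch3 had a log2 fold change of 0.55 ± 0.20 (edgeR adjusted p = 0.173). Pdgfrb, with 0.05 ± 0.21, and Rgs5, with -0.49 ± 0.28, did not follow them (adjusted p = 0.926 and 0.375).

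No contractile gene was called in fetal kidneys, and their levels spread widely within each group. Myh11 was at 48.9, 543 and 1057 CPM in control fetuses 1 to 3 and at 91.4, 458, 55.1, 61.2 and 328 CPM in dysmorphic fetuses 1 to 5. Cnn1 was at 2.82, 42.9 and 95.8 CPM in the controls and at 1.93, 36.7, 2.84, 1.60 and 24.5 CPM in the dysmorphic kidneys. In both genes control fetuses 2 and 3 and dysmorphic fetuses 2 and 5 were high and the other 4 low, and the groups overlapped. Without dysmorphic fetus 5 no contractile gene was called by edgeR either. With all fetuses the log2 fold changes were -1.51 ± 0.98 for Myh11, -1.85 ± 1.28 for Cnn1, -1.27 ± 0.74 for Tagln and -0.83 ± 0.44 for Acta2 (edgeR adjusted p = 0.337 to 0.464).

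Of the lists in the fetal comparison, 8 of 10 skeletal muscle genes were higher in dysmorphic kidneys, and of 11 other contractile genes Tpm2, which striated muscle expresses too, was higher (1.53 ± 0.27, adjusted p = 0.0373). Of 10 other pericyte genes Ndufa4l2 and Vtn were higher (1.06 ± 0.18 and 2.16 ± 0.31, adjusted p = 0.0353 and 0.035). Fibroblast genes summed to 4093 to 5497 CPM in control and 7862 to 17440 CPM in dysmorphic kidneys. The part of these cells in the member levels was not tested.

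Whether the fusion acted differently in the 2 models was tested as an interaction. Rgs5 was called, 1 of 10 genes, where 8.94% of 24444 genes were called and 6.87% were called higher. Its effect was larger in kidney tumors than in dysmorphic fetal kidneys by 1.75 ± 0.44 on the log2 scale (edgeR adjusted p = 0.0235), with both effects as given above, and the call was lost without control mouse 2 or 3, control fetus 2 or 3 or dysmorphic fetus 4 (adjusted p = 0.0518 to 0.0786). The other 9 ranged from -0.34 to 1.67, with adjusted p of 0.121 to 0.832. The models differ in Cre driver, age and tissue state, which cannot be told apart.

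The balance of the gene kinds was described as the mean log2 level of the 4 contractile genes minus that of the 6 pericyte genes, with 0.1 CPM added. It was 0.47 ± 0.24 (SD, n = 3) in control kidneys, 0.26 ± 0.86 (n = 4) in non-transformed kidneys, -0.71 ± 0.74 (n = 6) in kidney tumors, -2.28 ± 1.11 (n = 4) in retro-orbital tumors and -1.18 ± 1.22 (n = 3) in brain tumors. The lowest animal was retro-orbital fusion mouse 3, at -3.45. In fetal kidneys it was 1.54 ± 1.75 (n = 3) in controls and -0.16 ± 1.37 (n = 5) in dysmorphic kidneys, with wide overlap.

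**Figure D4:**
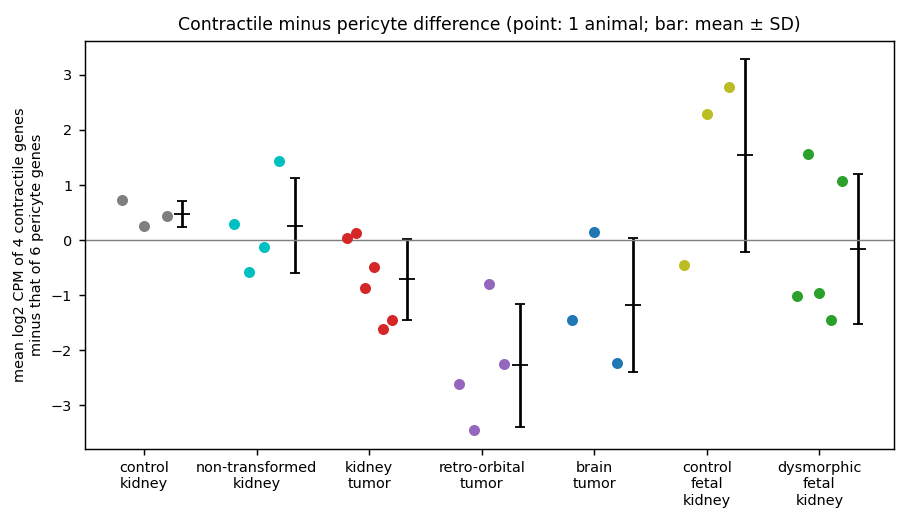
Mean log2 CPM of the contractile genes minus that of the pericyte genes, 1 point per animal, with the mean and SD beside each group. Control kidneys lie from 0.25 to 0.73, retro-orbital tumors from -3.45 to -0.79, and fetal kidneys spread from -1.45 to 2.78.

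Within groups the 4 contractile genes varied together. After each group's mean was subtracted from log2 levels, the median Pearson's r over the 6 contractile pairs was 0.853 (0.784 to 0.886), over the 15 pericyte pairs 0.523 (0.0163 to 0.757) and over the 24 mixed pairs -0.0401 (-0.343 to 0.286). These are descriptions over 28 sums that share mice and library preparation. The mean contractile level had an SD of 1.72 in control and 1.31 in dysmorphic fetal kidneys, against 0.31 to 0.90 in the adult groups. For the mean pericyte level it was 0.21 and 0.13, against 0.19 to 0.71. The part of this unequal spread in the coefficients was not tested. The highest r of a pericyte pair was below the lowest r of a contractile pair.

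**Figure D5:**
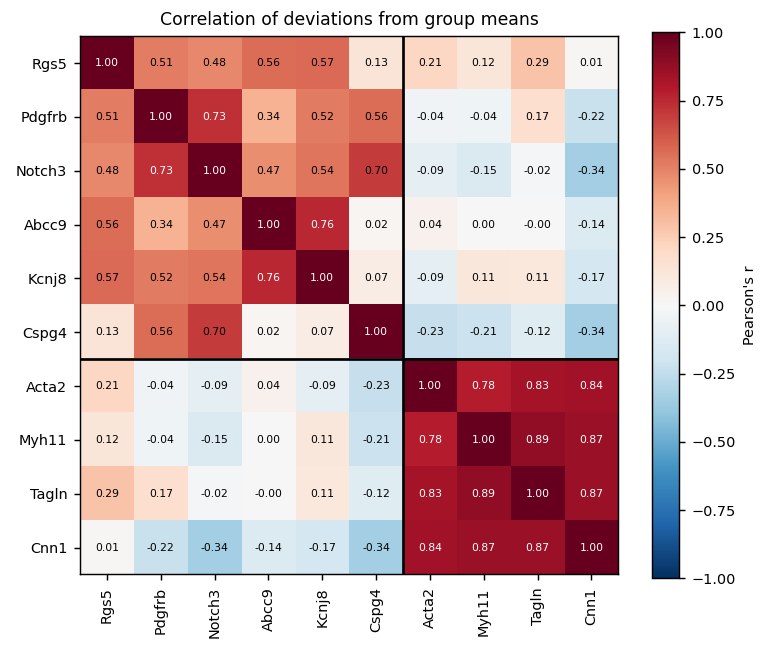
Pearson's r between the 10 genes over 28 sums, after the group mean of each gene was subtracted from its log2 CPM. The contractile block at the lower right runs from 0.784 to 0.886, and the mixed blocks from -0.343 to 0.286.

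Tumors of the same mouse gave a second look at the spread. In the 5 fusion mice with 2 kidney tumor libraries, the median difference between the libraries of a mouse ran from 0.125 (Kcnj8) to 0.981 (Myh11) on the log2 scale. For Abcc9 the median difference within mice was 0.332 and the range over the 6 mice 2.28. The largest difference within a mouse, in fusion mouse 3, was above the range between mice for Pdgfrb (1.25 against 0.90) and Notch3 (1.14 against 1.04). In control kidneys that held for each gene but Pdgfrb and Cspg4, with Rgs5 at 0.917 against 0.286. A difference between 2 libraries and a range over 6 mice are not like measures, so these values are a description.

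Genes with a pattern like that of a member across the 28 sums were found among 9744 genes with a mean log2 level of at least 3. For Pdgfrb they were Fhod1, Dll4 and Flt4 (r = 0.905, 0.904 and 0.902), for Rgs5 Sorbs3 and Eogt (0.858 and 0.857), for Acta2 Myl9, Ccnd2 and Ctnnd1 (0.858, 0.821 and 0.817) and for Myh11 Myl9, Ap1g2 and Atp8b1 (0.887, 0.877 and 0.876). Dll4 and Flt4 are endothelial genes, and Myl9 encodes the regulatory light chain of smooth muscle myosin. The sums fall into tissue groups, so the coefficients mostly describe the group pattern.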

How the data were processed

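Deposited files were 2 tables of raw counts per gene, 1 for adult and 1 for fetal tissue. Per the labels, the authors' processing notes name FastQC, MultiQC, Bowtie2, STAR 2.5.2a and builds GRCm38 and mm10, without roles. How the deposited counts were assigned to genes, and on which strand, was not given in the sources used here. Of counts from 1 to 20, 79.04% to 84.33% were even, so both mates of a pair may have been counted, and counts were also halved as an alternative.

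Animals were read from the prefix of the sample titles, and libraries of 1 animal and tissue were summed. Where nothing says that samples came from separate litters, p-values measure the spread between these samples. The groups of a comparison, and no others, entered its fit in edgeR 4.0.16 (R 4.3.3; TMM factors, filterByExpr, quasi-likelihood test), with Benjamini-Hochberg adjustment over all genes tested and a call at an adjusted p under 0.05. The SE was derived from the fold change and the F statistic (log2 fold change over root F). CPM used TMM library sizes. Scripts were tested on simulated data. Alternatives were other scaling factors, other filters, DESeq2 1.42.0, limma 3.58.1 (voom, mouse as a random block), halved counts, a joint fit, libraries unsummed, mouse as a fixed block and each animal left out.

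Tissues of 1 mouse pair by design. Deviations from group means correlated over 13264 genes at -0.0868 to 0.126 (kidney tumor with non-transformed kidney), 0.258 to 0.46 (with retro-orbital tumor) and -0.24 to 0.00373 (with brain tumor). Libraries of 1 mouse and tissue differed by far more than counting noise, so none was taken as a duplicate. Every member is reported, and of each list at most the 3 called genes with the largest change in a comparison are named, with the 3 most alike genes for Rgs5, Pdgfrb, Acta2 and Myh11, of which 1 is not reported here. The members and the 12 lists of 81 genes were chosen with earlier results of these data known. GENCODE M21 matched 53274 of 53379 gene identifiers. Intervals on counts would cover counting error only, and the least counted member had 40 counts in a sum.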

Additional observations from a re-analysis of the deposited data

Results flagged for a closer look

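Of 40 levels tested (10 genes in the 4 groups of 4 or more animals), 5 had 1 animal far from the others of its group. Chance would give about 2 if levels were independent and normally distributed. The contractile genes varied together within groups, so the 5 cannot be set against that number. Rgs5 was at 145 CPM in the retro-orbital tumor of fusion mouse 5, far below the other 3 mice. Cnn1 was at 6.00 CPM in the same tumor, far above the other 3. Cnn1 also stood far above its group at 13.7 CPM in non-transformed kidney of fusion mouse 5 and at 7.83 CPM in kidney tumor of fusion mouse 2. Acta2 was at 508 CPM in dysmorphic fetus 2, far above the other 4 fetuses.

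The fusion effect on Rgs5 differed between the 2 models, by 1.745 on the log2 scale in the interaction test (edgeR adjusted p = 0.0235). In 6 of 6 tumor mice Rgs5 was above every control mouse, and 29.8% of all genes had groups without overlap in that comparison.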

How the results depend on the processing

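The number of members called depended on single animals in most comparisons. With each animal left out in turn it ranged from 0 to 3 for kidney tumors against control kidneys (3 with all animals), from 0 to 2 against non-transformed kidney (2), from 0 to 5 for brain against kidney tumors (3), from 0 to 6 for brain against retro-orbital tumors (5), from 0 to 1 for fetal kidneys (0) and from 0 to 1 for the interaction (1). DESeq2 called 5 members for brain against kidney tumors (and 5104 of 23391 genes), 8 for brain against retro-orbital tumors (3080 of 21037) and 2 for fetal kidneys (2726 of 22690), where edgeR called 2044, 364 and 605 genes. For brain against kidney tumors the joint fit and the unsummed libraries each called 5 and limma-voom 6. Limma-voom called 4 for kidney tumor against non-transformed kidney.

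With mouse as a replicate block, edgeR called 0 members for kidney tumor against non-transformed kidney and 0 for brain against kidney tumors, with 4 and 7 at an unadjusted p under 0.05. These fits called 847 of 20575 and 0 of 21827 genes, so the second says nothing about the members. Beyond these and the Kcnj8 and Notch3 values for retro-orbital tumors, this fixed block changed no call. With mouse as a random block in limma-voom, calls were gained by Cspg4 against control kidney, by Rgs5 and Myh11 against non-transformed kidney, by Notch3 in retro-orbital tumors and by Acta2, Myh11 and Tagln in brain against kidney tumors. A block on the title prefix of the fetuses, whose meaning the labels do not give, called 0. Retro-orbital and brain tumors shared 1 mouse, so no fixed block was possible there, and limma-voom with a random block was not run because the fit gave no estimate of the correlation.

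Of 630 single-gene values under the settings other than leaving out an animal, 593 kept their side of the threshold, 31 gained a call and 6 lost it. Of 650 with 1 animal left out, 590 kept it, 53 lost a call and 7 gained one. None that was called changed sign. With 3 to 6 animals a group, small changes were not detectable.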
